A study of Homo sapiens with 24 samples.

Results

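FTX is a long noncoding RNA gene of the X-inactivation centre that carries 4 miRNA hairpins in its introns. The 7 mature miRNAs of those hairpins, miR-421 and both arms of miR-374a, miR-374b and miR-545, are described here among the 2652 mature miRNAs of the tables. They were chosen by position, as rows on the minus strand inside FTX, and with measured values in view: miR-421 was already known to be among the larger decreases after SFPQ knockdown. Values of the SFPQ knockdown are therefore a description: no p is given for them, and the number of members past the threshold is printed only beside the share of all miRNAs past it, with nothing read from it.

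Small RNA was sequenced from SBC-3, a human small cell lung cancer line labelled wild type, 72 h after reverse transfection with an siRNA or an antisense oligonucleotide (ASO) at 10 nM. All 8 groups, 3 libraries each, received Lipofectamine RNAiMAX. Knockdown used siSFPQ-2 and siSFPQ-3 against SFPQ, and siNONO-3 and siNONO-4 against NONO, each set against siCtrl, while ASO-NEAT1-1047 and ASO-NEAT1-1473 against NEAT1 were set against ASO-Ctrl. The labels do not say that replicates were separate cultures, so p-values measure only the spread between libraries. The transcripts targeted are not measured by small RNA libraries, and the knockdown itself was not analysed here.

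An intronic miRNA hairpin is cut out of its host transcript in the nucleus by the Microprocessor, then trimmed by Dicer into a duplex whose strands are the 5p and 3p arms. One arm is usually kept on an Argonaute protein, where bases 2 to 8, the seed, pair with target mRNAs. SFPQ and NONO are RNA-binding partner proteins of nuclear paraspeckles, which assemble on the noncoding RNA NEAT1, and in human cells they have been reported to bind primary miRNA transcripts. Mouse Ftx is known as an activator of Xist, the RNA that silences the inactive X chromosome.

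The sequences below show how alike the arms of the 2 hairpin pairs are, since likeness decides which reads can be told apart. RefSeq (GRCh38.p14) gave the mature sequence of 6 of the 7 members and of both arms of miR-374c, a hairpin on the opposite strand at the miR-374b locus; miR-374a-5p is named only. Capitals mark the seed.
miR-421: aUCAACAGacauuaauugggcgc
miR-374b-5p: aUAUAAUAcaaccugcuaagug
miR-374b-3p: cUUAGCAGguuguauuaucauu
miR-545-5p: uCAGUAAAuguuuauuagauga
miR-545-3p: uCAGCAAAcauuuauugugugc
miR-374a-3p: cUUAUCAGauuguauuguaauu
miR-374c-5p: aUAAUACAaccugcuaagugcu
miR-374c-3p: cACUUAGCagguuguauuauau
No seed is shared between these 8 sequences, and miR-374a-5p could not be compared with them. The 3p arms of miR-374b and miR-374a are the same at 18 of 22 positions, and the arms of miR-545 are the same as each other at 15 of 22. The miR-374c-5p sequence repeats 20 bases of miR-374b-5p after a shift of 2. Apart from miR-421, the members with a sequence are poor in G and C. miR-374a-3p and miR-545-5p hold 22.7%, both miR-374b arms 31.8% and miR-545-3p 36.4%. The median of the 553 tested miRNAs with a sequence was 45.5%, with quartiles of 38.1% and 54.5%. miR-421, at 43.5%, lies between those quartiles.

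The hairpins form 2 pairs in FTX, a lincRNA gene of 18 transcripts at chromosome X, 73946555 to 74293574, minus strand, in GENCODE release 29 (GRCh38). miR-421 (MIMAT0003339) lies at 74218392 to 74218414, and 142 bases from it the miR-374b arms lie at 74218557 to 74218578 for 3p (MIMAT0004956) and 74218587 to 74218608 for 5p (MIMAT0004955). The other pair is 68.5 kb away and nearer the start of the gene. In it miR-545-3p (MIMAT0003165) lies at 74287126 to 74287147, miR-545-5p (MIMAT0004785) at 74287164 to 74287185, miR-374a-3p (MIMAT0004688) at 74287295 to 74287316 and miR-374a-5p (MIMAT0000727) at 74287325 to 74287346. All 7 are intronic, with an exon of 0 annotated FTX transcripts at any of them. Of the 18 transcripts, 7 span the miR-421 and miR-374b pair and 13 span the miR-545 and miR-374a pair.

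Both arms of miR-374b were listed at 0 counts in all 24 libraries, and so were both arms of miR-374c on the other strand. At the depths here, 3 counts, the limit that a count of 0 allows, correspond to 0.701 to 1.47 CPM, for counting error only. CPM are counts scaled to a common library size. This range uses raw library totals, whereas the levels given below use TMM library sizes. Whether reads with the same molecular identifier were collapsed is not stated, so a count may be a molecule or a PCR read. That limit cannot be applied to miR-374b, because its rows overlap the miR-374c rows. Of the 140 miRNA loci in the tables that overlap a locus on the opposite strand, 125 (89.3%) were at 0 in every library, against 478 of the 2743 other loci (17.4%). The highest total at any overlapped locus was 196 counts, at miR-3120-5p. Loci of the same miRNA differed in the same way: miR-7-5p, a neural and endocrine miRNA, had 0 counts at its overlapped locus and 966126 at another, and miR-24-3p had 0 and 46397. No source used here gives the strand setting of the counting, and the level of miR-374b is not known from these tables. The pair of miR-421 and miR-374b is thus represented by miR-421 alone.

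**Figure D1:**
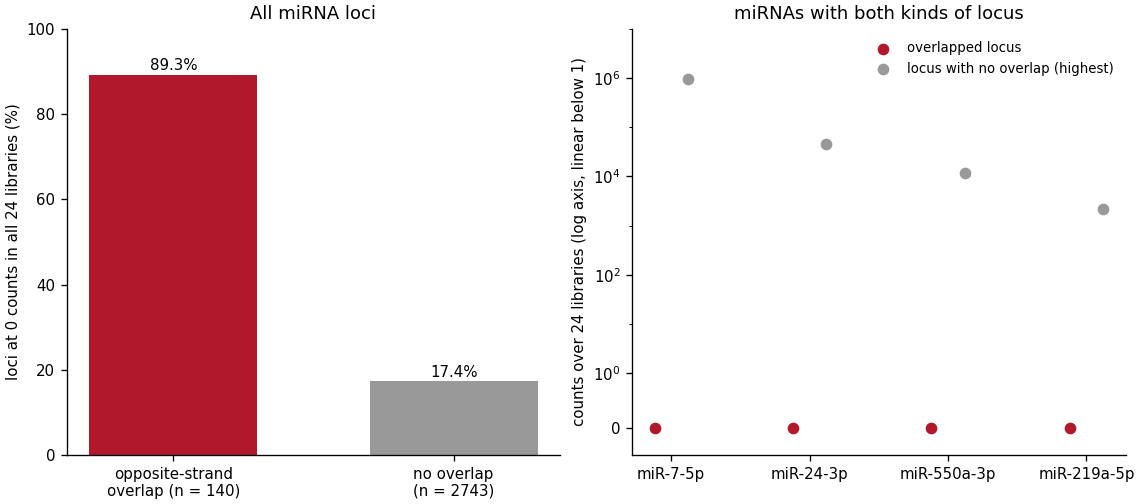
Left, the share of miRNA loci with 0 counts in all 24 libraries, as bars in percent, for loci that overlap a locus on the opposite strand and for all others; 89.3% of overlapped loci were at 0, against 17.4%. Right, total counts over 24 libraries (log axis, linear below 1) at the overlapped and the best other locus of the 4 miRNAs that have both; each overlapped locus stands at 0.

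The other 5 members had counts in every library and passed the filter on low counts that kept 626 miRNAs. miR-374a-5p was the most abundant at a mean of 2345 CPM over the 24 libraries, rank 54 of the 626. miR-374a-3p averaged 347.2 CPM (rank 117) and miR-421 172.1 CPM (rank 172). Both miR-545 arms were scarce, with 15.08 CPM for 5p (rank 353) and 11.51 CPM for 3p (rank 378), from 6 to 109 counts per library. Their fold changes had the largest SEs of the 5 in each knockdown. No member had counts within 10% of another miRNA in every library, so none of the 5 showed the sign of fully shared reads.

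Libraries held 2038382 to 4279644 counts and 927 to 1220 detected miRNAs. On the second principal component (9.94% of the variance) siCtrl replicate 1 (11.7) and ASO-NEAT1-1047 replicate 3 (10.2) lay far from their fellow replicates (siCtrl -8.18 and -7.74, ASO-NEAT1-1047 -7.75 and -3.38). Of 9 listed neuroendocrine and neural markers 8 had a row, led by miR-9-5p at 46767 to 106856 CPM, while miR-375-3p, a neuroendocrine marker, reached only 8.55 CPM. Of 6 listed blood cell markers 5 had a row: miR-223-3p, miR-144-3p and miR-150-5p did not exceed 1.13 CPM, while miR-142-5p had 2.25 to 19.4 CPM and miR-142-3p 23.5 to 151 CPM. Some summed marker lists were apart from siCtrl with SFPQ knockdown. The neuroendocrine list summed to 68079 to 90643 CPM in the 6 SFPQ knockdown libraries, against 111774 to 124826 in siCtrl. The 3 epithelial markers summed to 371 to 487 CPM, against 90.3 to 148. The 3 muscle markers summed to 113 to 202 CPM, against 332 to 390. The 5 of fibroblasts, smooth muscle and endothelium overlapped, at 23974 to 35712 CPM, against 33090 to 50227. The 5 blood cell markers with a row also overlapped in sum. miR-122-5p of liver was at 0 throughout, at an overlapped locus of the kind above, as is miR-214-3p of the fibroblast list. Their part in the members' values was not tested.

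miR-421, which in human cells has been reported to act on the mRNA of the ATM kinase, was the member with the lowest log2 fold change after SFPQ knockdown. It had 64.9, 76.1 and 83.5 CPM in siSFPQ-2 and 59.3, 59.8 and 57.9 CPM in siSFPQ-3, against 229.0, 227.2 and 263.1 CPM in siCtrl. All 6 knockdown libraries lay below all 3 controls, and below every library of the 6 groups without an SFPQ siRNA. The log2 fold change was -1.85 ± 0.16 (SE), with -1.68 ± 0.19 for siSFPQ-2 and -2.02 ± 0.19 for siSFPQ-3. Among the 626 tested miRNAs 14 had a lower log2 fold change.

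miR-374a-5p, the abundant arm of the other pair, was lower by less. It had 1875, 901.1 and 1319 CPM in siSFPQ-2 and 1905, 1583 and 1378 CPM in siSFPQ-3, against 1979, 2832 and 3100 CPM in siCtrl. Every knockdown library lay below every control, but the highest knockdown library and the lowest control, siCtrl replicate 1, were close. Its log2 fold change was -0.83 ± 0.18, and 96 of the 626 miRNAs had a lower one. The opposite arm, miR-374a-3p, had 328.6, 123.7 and 237.2 CPM in siSFPQ-2 and 252.7, 276.6 and 271.1 CPM in siSFPQ-3, against 231.2, 423.4 and 472.3 CPM in siCtrl. Here the groups overlapped: only siSFPQ-2 replicate 2 lay below all 3 controls, and the log2 fold change was -0.60 ± 0.23.

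The miR-545 arms depended on which control libraries were used. miR-545-5p had 11.2, 5.37 and 8.42 CPM in siSFPQ-2 and 4.52, 9.21 and 5.95 CPM in siSFPQ-3, against 2.25, 36.2 and 29.7 CPM in siCtrl. miR-545-3p had 9.36, 10.1 and 5.49 CPM in siSFPQ-2 and 4.98, 6.80 and 6.46 CPM in siSFPQ-3, against 2.25, 21.9 and 19.8 CPM in siCtrl. For both arms siCtrl replicate 1, with 6 counts each, was below every knockdown library, and the other 2 controls were above every one. The log2 fold changes were -1.61 ± 0.46 for miR-545-5p and -1.03 ± 0.46 for miR-545-3p. Without siCtrl replicate 1 they were -2.19 and -1.58, and without siCtrl replicate 2 they were -1.03 and -0.54.

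At an adjusted p under 0.05 (edgeR quasi-likelihood, Benjamini-Hochberg over all 626), 4 of the 5 members were past the threshold with SFPQ knockdown, all but miR-545-3p, where 48.2% of all tested miRNAs were past it in either direction. As the members were chosen with these values in view, the count is no test of them. For siSFPQ-2 alone 4 were past it (38.7% of all) and for siSFPQ-3 alone 3 were (44.4%), miR-374a-3p being the difference. Groups were apart for 2 of 5 members, miR-421 and miR-374a-5p, and for 34.0% of all tested miRNAs. The median log2 fold change of the 5 was -1.02, beside 0.02 over the 626. On library totals in place of TMM scaling the median of all miRNAs moved to 0.47. Over all 626 miRNAs 252 were then past the threshold as higher and 67 as lower, against 160 and 142 with TMM, and of the members miR-421 (-1.40) and miR-545-5p were. Both miR-374a arms were short of it, with log2 fold changes of -0.40 for 5p and -0.19 for 3p.

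**Figure D2:**
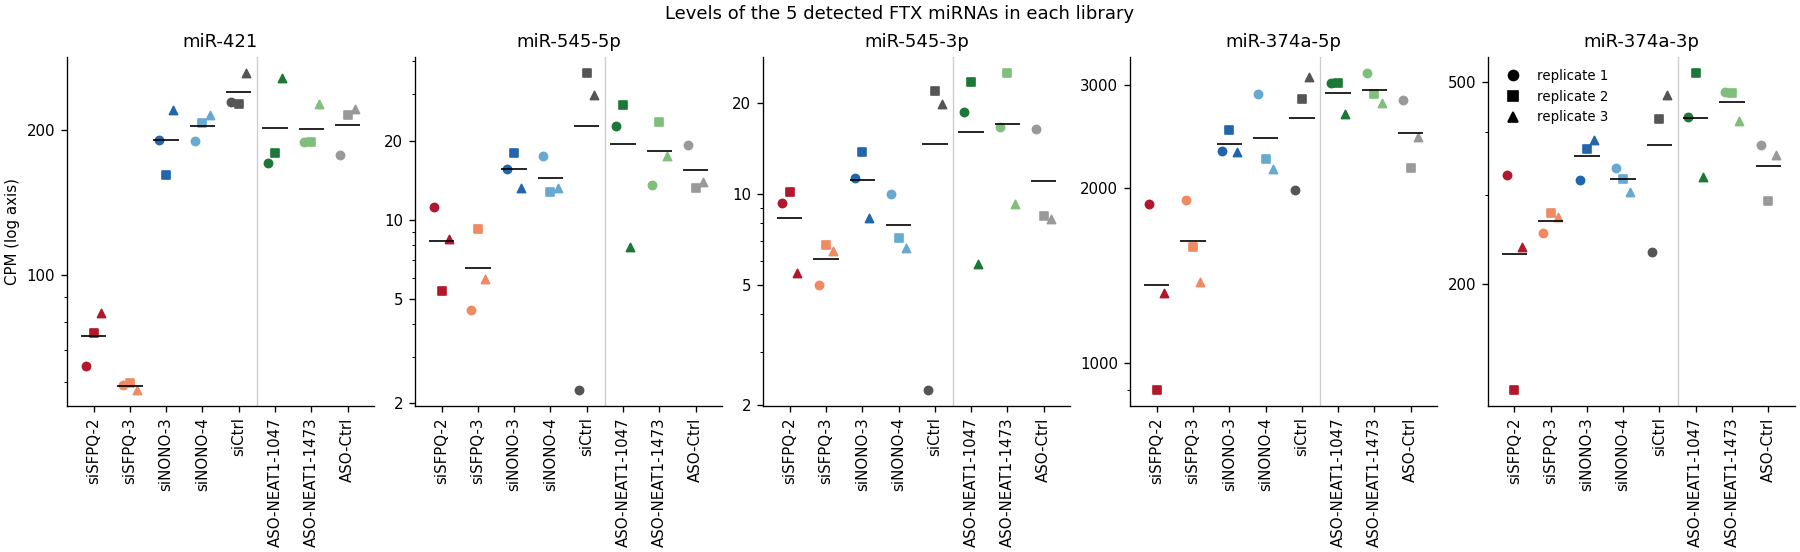
CPM (log axis, a separate scale for each panel) of the 5 detected FTX miRNAs in each of the 24 libraries, with marker shapes for replicates 1 to 3 and a line at each group's mean. miR-421 lies at 57.9 to 83.5 CPM in the 6 SFPQ knockdown libraries, against 227.2 to 263.1 CPM in siCtrl, while siCtrl replicate 1 is the lowest of all 24 for both miR-545 arms.

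The SFPQ siRNAs could be compared with each other by test, since the choice of members did not use their difference. The 5 log2 differences, siSFPQ-3 minus siSFPQ-2, ran from -0.46 for miR-545-3p to 0.25 for miR-374a-5p, and 0 of 5 were called, against 0.639% of all. miR-421 had 57.9 to 59.8 CPM with siSFPQ-3 and 64.9 to 83.5 CPM with siSFPQ-2, a log2 difference of -0.34 ± 0.19 (edgeR adjusted p = 0.703). That difference was 0.23 when scaled to spike-in totals, where the median over all 626 miRNAs moved from -0.09 to 0.46. No member had an unadjusted p under 0.05, and DESeq2 also called 0.

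With NONO knockdown no member was called. miR-421 had 190.7, 161.8 and 220.2 CPM in siNONO-3 and 190.2, 206.9 and 215.6 CPM in siNONO-4, against 229.0, 227.2 and 263.1 CPM in siCtrl. All 6 NONO knockdown libraries lay below every siCtrl library, yet the log2 fold change of -0.28 ± 0.16 did not pass (edgeR adjusted p = 0.543). It was the only 1 of the 5 members whose groups were apart, as were those of 5.91% of all tested miRNAs. The ASO-Ctrl libraries, which had no NONO siRNA, also lay below every siCtrl library for miR-421.

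The members of the other pair overlapped with siCtrl throughout. miR-374a-5p had 2153 to 2894 CPM in the 6 NONO knockdown libraries, against 1979 to 3100 CPM in siCtrl, and miR-374a-3p had 304.3 to 384.8 CPM, against 231.2 to 472.3 CPM. Log2 fold changes were -0.13 ± 0.19 and -0.14 ± 0.23 (edgeR adjusted p = 0.868 and 0.906). miR-545-5p had 12.8 to 18.0 CPM, against 2.25 to 36.2 CPM in siCtrl, and its log2 fold change was -0.59 ± 0.45 (edgeR adjusted p = 0.676). The miR-545-3p fold change was -0.63 ± 0.46 (edgeR adjusted p = 0.659), from 6.60 to 13.7 CPM, against 2.25 to 21.9 CPM. Thus 0 of 5 were called by edgeR and by DESeq2, and 0 had an unadjusted p under 0.05, where edgeR called 1.60% of all miRNAs, 2.56% for siNONO-3 alone and 0.958% for siNONO-4 alone.

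The miR-545 calls with NONO knockdown changed when libraries were left out. Without both libraries that stood apart, a choice made after seeing the data, both arms passed: miR-545-5p at -1.20 (edgeR adjusted p = 0.0147) and miR-545-3p at -1.21 (edgeR adjusted p = 0.034). Without siCtrl replicate 1 alone the log2 fold changes were the same to 2 decimals, and neither passed (edgeR adjusted p = 0.0738 for 5p and 0.109 for 3p). Without siCtrl replicate 2 they were -0.06 for 5p and -0.19 for 3p. Between the 2 NONO siRNAs 0 of 5 members were called, beside 0% of all miRNAs, with 0 members and 38 miRNAs at an unadjusted p under 0.05, while DESeq2 called 0 members and 7 miRNAs. The log2 differences, siNONO-4 minus siNONO-3, ran from -0.47 for miR-545-3p to 0.10 for miR-421.

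Values of the SFPQ and NONO knockdowns were also set side by side in 1 contrast, which carries the values that chose the members and is a description. The log2 difference, SFPQ minus NONO, was -1.57 ± 0.14 for miR-421, -1.02 ± 0.39 for miR-545-5p and -0.69 ± 0.15 for miR-374a-5p. It was -0.46 ± 0.19 for miR-374a-3p and -0.39 ± 0.39 for miR-545-3p. Of the 5 members 4 were past the threshold, where 56.5% of all miRNAs were past it in either direction, and nothing is read from that count. When scaled to library totals, or to spike-in totals, only miR-421 was past it. Over all miRNAs 186 were past it as higher and 168 as lower with TMM. These were 257 and 93 on library totals, and 228 and 95 on spike-in totals.

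With NEAT1 knockdown miR-421 was at the level of its control. It had 170.7, 179.6 and 256.1 CPM in ASO-NEAT1-1047 and 189.1, 189.3 and 226.3 CPM in ASO-NEAT1-1473, against 177.9, 215.2 and 220.9 CPM in ASO-Ctrl. The groups overlapped at both ends, with a log2 fold change of -0.02 ± 0.16 (edgeR adjusted p = 0.975). The highest of the 9, ASO-NEAT1-1047 replicate 3, is one of the libraries that stood apart.

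The 4 arms of the other pair had positive log2 fold changes with NEAT1 knockdown, but none passed. miR-374a-5p had 2677 to 3145 CPM in the 6 NEAT1 knockdown libraries, against 2163 to 2831 CPM in ASO-Ctrl, a log2 fold change of 0.24 ± 0.19. miR-374a-3p had 426.9, 522.3 and 325.2 CPM in ASO-NEAT1-1047 and 478.2, 475.8 and 420.5 CPM in ASO-NEAT1-1473, against 375.9, 291.8 and 359.8 CPM in ASO-Ctrl. All 3 ASO-NEAT1-1473 libraries and 2 of the 3 ASO-NEAT1-1047 libraries were above every control, and the log2 fold change was 0.36 ± 0.24 (edgeR adjusted p = 0.908). With ASO-NEAT1-1473 alone it was 0.42 ± 0.27 (edgeR adjusted p = 0.608), and groups were apart for 18.5% of all miRNAs. The miR-545 arms were at 0.28 ± 0.46 for 5p and 0.56 ± 0.46 for 3p.

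For NEAT1 the edgeR test called 0 of 5 members and 0% of all miRNAs, with both ASOs or either one. None of the members and 19 of all miRNAs had an unadjusted p under 0.05 with both ASOs together, DESeq2 called 0 of 626, and groups were apart for 0 of 5 members and 2.08% of all miRNAs. Between the 2 ASOs 0 of 5 were called as well, also 0% of all, by edgeR and DESeq2, with 0 members and 15 miRNAs at an unadjusted p under 0.05 and log2 differences, ASO-NEAT1-1473 minus ASO-NEAT1-1047, of -0.09 to 0.11.

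The libraries of the 2 controls did not overlap for miR-421, which was so for 1 of 5 members, and the difference did not pass. ASO-Ctrl had 177.9 to 220.9 CPM and siCtrl 227.2 to 263.1 CPM, which did not overlap, as was so for 12.0% of all miRNAs. The log2 difference, ASO-Ctrl minus siCtrl, was -0.23 ± 0.19 (edgeR adjusted p = 0.922), about as large as that of NONO knockdown against siCtrl, and 0 of 5 members were called by edgeR or DESeq2 or had an unadjusted p under 0.05, against 0.479% of all called by edgeR. Without both libraries that stood apart miR-545-5p passed at -1.15 (edgeR adjusted p = 0.0385).

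**Figure D3:**
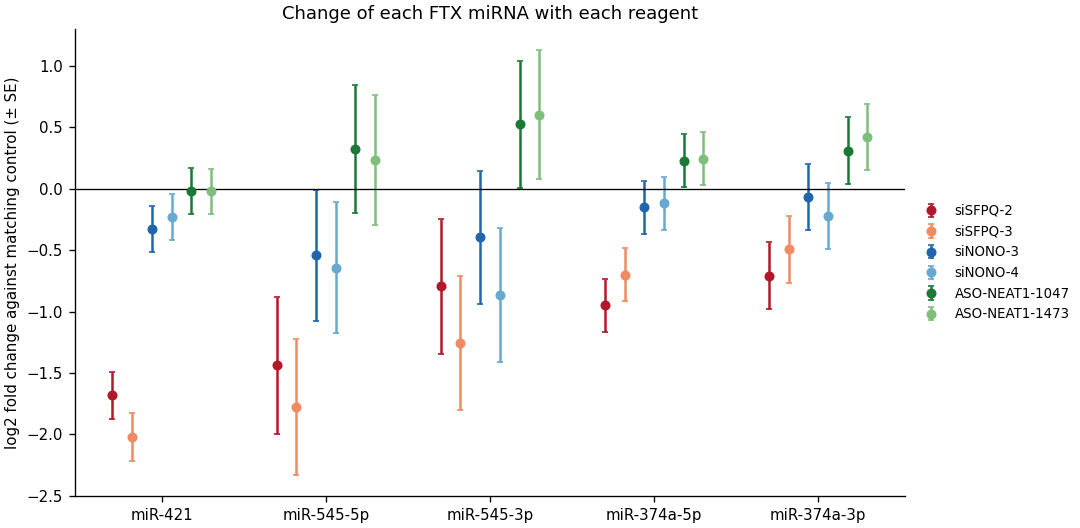
Log2 fold change of each detected FTX miRNA (x axis) with each knockdown reagent against its matching control, with bars of ± 1 SE from the edgeR fit. The SFPQ siRNAs stand lowest for all 5 except that siNONO-4 (-0.86) is below siSFPQ-2 (-0.80) for miR-545-3p, and the NEAT1 ASOs stand at or above 0 for all but miR-421 (-0.02 for each).

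Across the 8 groups the order of mean levels was like this. For miR-421, siSFPQ-3 (59.0 ± 1.00 CPM, SD, n = 3) was lowest, then siSFPQ-2 (74.8 ± 9.35), and 5 groups followed within 190.9 to 204.7 CPM whose neighbours in the order overlapped: siNONO-3, ASO-NEAT1-1473, ASO-NEAT1-1047, siNONO-4 and ASO-Ctrl. siCtrl was highest at 239.7 ± 20.3 CPM and did not overlap with its neighbour ASO-Ctrl. For miR-374a-5p the order was siSFPQ-2 (1365 ± 488 CPM), siSFPQ-3 (1622 ± 266), siNONO-3 (2375 ± 116), siNONO-4 (2429 ± 405), ASO-Ctrl (2480 ± 335), siCtrl (2637 ± 585), ASO-NEAT1-1047 (2907 ± 199) and ASO-NEAT1-1473 (2942 ± 183). In that order the libraries of neighbours were apart only between siSFPQ-3 and siNONO-3. For miR-374a-3p siSFPQ-2 replicate 1 (328.6 CPM) lay above siNONO-4 replicate 3 (304.3 CPM), so the SFPQ groups were not apart from the others. For both miR-545 arms siCtrl replicate 1 (2.25 CPM) lay below every SFPQ knockdown library. In miR-545-3p every neighbour in the order overlapped. The share of all miRNAs with a gap between neighbours was not counted.

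The ratio of the 2 hairpin pairs was taken within each library, as the summed counts of the miR-545 and miR-374a arms over those of miR-421, so that it does not depend on how libraries are scaled. miR-374a-5p makes up most of the numerator. On the log2 scale the ratio was 5.10, 3.77 and 4.23 in siSFPQ-2 and 5.19, 4.97 and 4.84 in siSFPQ-3, against 3.27, 3.87 and 3.78 in siCtrl. All siSFPQ-3 libraries were above every library of the groups without an SFPQ siRNA, whereas siSFPQ-2 replicate 2 lay within the range of siCtrl. As geometric means, the miR-545 and miR-374a pair had 20.7 counts in siSFPQ-2 and 32.0 in siSFPQ-3 for each count of miR-421, against 12.5 in siCtrl.

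In the other knockdowns the ratio stayed nearer its control. It averaged 3.86 ± 0.28 in siNONO-3 and 3.76 ± 0.30 in siNONO-4, against 3.64 ± 0.32 in siCtrl (SD, n = 3 each). In ASO-NEAT1-1047 it averaged 4.08 ± 0.45 and in ASO-NEAT1-1473 4.09 ± 0.23, against 3.80 ± 0.35 in ASO-Ctrl. The differences from control were 0.17 for NONO and 0.29 for NEAT1, beside a pooled SD within groups of 0.38. That SD is the spread of single libraries and is no error of a difference between means. For SFPQ the difference was 1.04, which carries the values that chose the members. Leaving out siCtrl replicate 1 made the difference 0.86 for SFPQ and -0.02 for NONO. For NEAT1 the difference was 0.48 without ASO-Ctrl replicate 1, 0.40 without ASO-NEAT1-1047 replicate 3 and 0.39 without the miR-374a-5p counts, each above that SD, and 0.15 without ASO-Ctrl replicate 2.

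**Figure D4:**
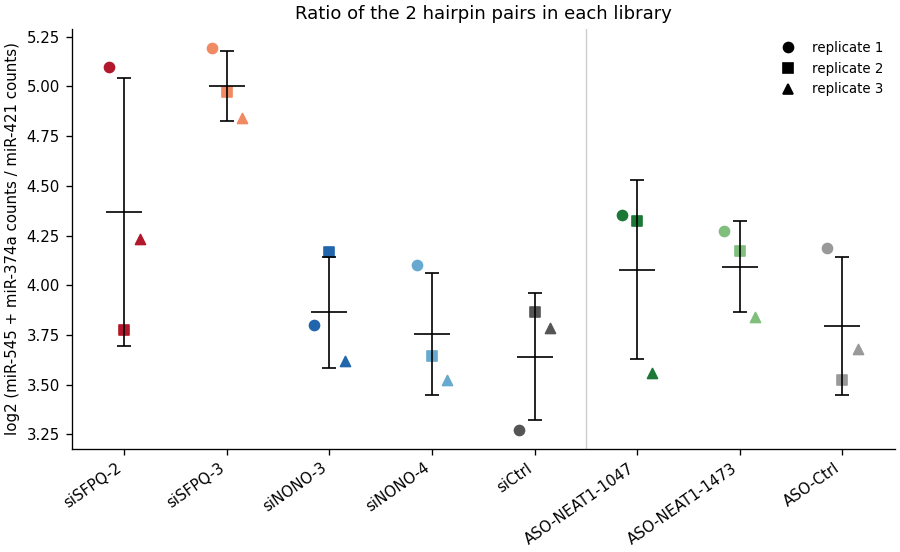
Log2 ratio of summed miR-545 and miR-374a counts to miR-421 counts in each library (points, shapes for replicates 1 to 3), with the mean and SD of each group of 3. The siSFPQ-3 libraries, at 4.84 to 5.19, are above every library outside the SFPQ groups, and siSFPQ-2 replicate 2, at 3.77, is not.

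The 5p to 3p ratio within a hairpin shows whether the arms moved together. For miR-374a the geometric mean ratio lay between 6.03 (siSFPQ-3) and 7.48 (siNONO-4) over the 8 groups, so the 5p arm was the more abundant one in each. The log2 ratio, SFPQ knockdown minus siCtrl, was -0.25 at a within-group SD of 0.19. With NONO and NEAT1 knockdown it was -0.03 and -0.12, under that SD. For miR-545 the arms were nearly even, with ratios of 0.991 (siSFPQ-2) to 1.82 (siNONO-4). The differences were -0.41 for SFPQ, 0.25 for NONO and -0.29 for NEAT1, all under the within-group SD of 0.42. Both SDs here are also of single libraries and are no error of a difference.

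Within groups the members of the miR-545 and miR-374a pair varied together and miR-421 did not follow them. Over the 24 libraries, as deviations from group means of log2 CPM, Pearson's r was 0.846 between the miR-374a arms, 0.887 between the miR-545 arms and 0.465 to 0.756 between an arm of miR-545 and one of miR-374a. Between miR-421 and these 4 arms it was -0.499 to -0.282. Points of a library share its depth and scaling, and these values are a description. The miR-545 arms deviated far in siCtrl replicate 1 (-2.362 for 5p, -1.936 for 3p) and siCtrl replicate 2 (1.321 and 1.039). No r was taken without these libraries.

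Base composition was set beside these deviations. In each library the deviations of the 553 tested miRNAs with a sequence were set against their GC content, and Pearson's r was highest in siSFPQ-2 replicate 2 (0.488), ASO-NEAT1-1047 replicate 3 (0.389), siCtrl replicate 1 (0.380) and ASO-Ctrl replicate 2 (0.374). In those 4 libraries the log2 deviation of miR-374a-3p was -0.78 to -0.22 and that of miR-545-5p -2.36 to -0.20, both arms having 22.7% GC. miR-545-3p, at 36.4% GC, ranged from -1.94 to 0.30 and was above its group mean in siSFPQ-2 replicate 2, where r was highest. miR-421 was at -0.06 to 0.36 in the same libraries. The detected members with a sequence are among the 553, and a high r means that miRNAs poor in G and C lay low. The low values of such arms there follow in part from how the libraries were picked, and nothing is read from them. The highest 4 thus include both libraries that stood apart and siSFPQ-2 replicate 2, the one with the low pair ratio. Over the same miRNAs the r of the log2 fold change with GC content was -0.06 for SFPQ, 0.14 for NONO and -0.35 for NEAT1. The part of base composition in the members' differences was not tested.

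**Figure D5:**
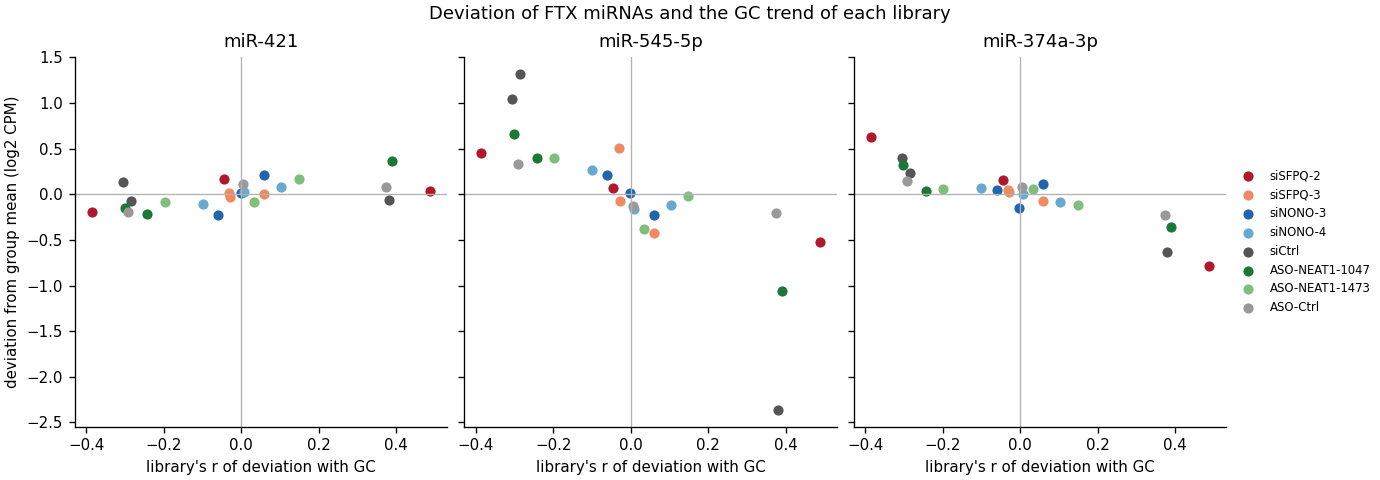
Log2 CPM deviation from the group mean (y axis) of miR-421, miR-545-5p and miR-374a-3p in each of the 24 libraries, against that library's Pearson r between the deviations of 553 miRNAs and their GC content (x axis). In the 4 libraries with the highest r (0.374 to 0.488) both arms of low GC content lie below their group means, and miR-421 lies at -0.06 to 0.36. These miRNAs are among the 553, so the low values follow in part from picking libraries by r.

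The miRNAs outside FTX most like miR-421 over the 24 libraries, among the 390 with a mean of at least 10 CPM, were miR-598-3p (Pearson's r 0.958), miR-152-3p (0.957) and miR-4454 (0.952). With SFPQ knockdown their log2 fold changes were -1.59 ± 0.16, -0.87 ± 0.11 and -2.59 ± 0.21. For miR-374a-5p they were miR-590-3p (0.909), miR-137-3p (0.900) and let-7a-3p (0.897), with log2 fold changes of -0.74 ± 0.22, -0.54 ± 0.22 and -1.39 ± 0.19. miR-421 and miR-374a-5p had an r of 0.741 with each other. Each had a higher r with the 3 named for it, but those were picked as the highest of the 390. The rank of 0.741 among the 390 was not taken, and nothing is read from that comparison. None of these 6 is counted at a locus on chromosome X. The r values span all 8 groups, differences between groups included.

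Outside FTX, 59 tested miRNAs with a locus on chromosome X gave the setting, 8 of which have several loci. With SFPQ knockdown 11 were called higher and 19 lower, 50.8% of the 59 beside 48.2% of all 626, with a median log2 fold change of -0.27 beside 0.02 over all 626, and none had a lower log2 fold change than miR-421. On library totals the split was 20 higher and 8 lower, and on spike-in totals 14 higher and 11 lower. The smallest p-values belonged to miR-424-3p (2.16 ± 0.37, edgeR adjusted p = 5.13e-05) and miR-548f-3p (1.02 ± 0.19, edgeR adjusted p = 0.00017; its counts come from a locus on chromosome 2) among the higher. Among the lower they belonged to miR-651-5p (-1.68 ± 0.17, edgeR adjusted p = 2.2e-08) and miR-660-5p (-1.10 ± 0.17, edgeR adjusted p = 9.75e-06). With NONO knockdown miR-676-3p was lower (-1.09 ± 0.23, edgeR adjusted p = 0.0097) and no other of the 59 was called. With NEAT1 knockdown 0 were, and 1 had an unadjusted p under 0.05.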

How the data were processed

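Small RNA libraries were made from SBC-3 cells with the QIAseq kit and its spike-ins, from 100 ng of RNA, per the labels' protocols. The authors deposited raw counts for each locus of a mature miRNA and each spike-in; the file headers name featureCounts. Build hg38, DESeq2 1.38.1, Subread 2.0.3, UMI-tools 1.1.1, Bowtie 1.3.0 and Trimmomatic 0.39 appear in the submitters' processing notes, with no roles, so whether molecular identifiers were collapsed before counting is not known. The members and lists were chosen with earlier results of these data known.

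For each of 2652 mature miRNAs the locus with the largest total was kept. Names came from position (within 3 bases) in RefSeq or GENCODE hairpins. The 626 miRNAs past filterByExpr (minimum count 10) were fitted with edgeR 4.0.16 (R 4.3.3, limma 3.58.1): TMM, 1 model over 24 libraries (16 residual degrees of freedom), quasi-likelihood test, Benjamini-Hochberg adjustment, threshold 0.05. SE is |log2 fold change| over sqrt(F). CPM use TMM library sizes, except the limit for a count of 0, which uses raw library totals. log2 CPM has a prior count of 2, and 0.5 was added to counts in arm ratios. A knockdown is the mean of its 2 reagents minus its control.

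Besides members, named miRNAs were the 3 with the highest Pearson r to miR-421 and to miR-374a-5p, and the 2 smallest p-values per direction on chromosome X. Any miRNA with a member's seed was to be named. Among miRNAs with both a row and a sequence, none outside the member itself had the seed of any of the 6 members searched. miR-374a-5p has a row but no sequence here, so it could be searched neither for its own seed nor as a mate of the others. Alternatives included DESeq2 1.42.0.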

Additional observations from a re-analysis of the deposited data

How the results depend on the processing

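The number of members called with SFPQ knockdown, 4, was 2 on library totals (miR-421 and miR-545-5p). Of all 626 miRNAs 252 were then called higher and 67 lower, against 160 and 142. With 1 library left out it was 2 to 5. The 2 (miR-421 and miR-374a-5p) came without siCtrl replicate 2, and the 5 without siCtrl replicate 1. The SFPQ log2 fold change of miR-421, which chose the members, was -1.92 to -1.40 over all alternatives. SFPQ minus NONO called 4, and 1 on library totals, 1 on spike-in totals, 2 at a mean of at least 10 CPM and 2 to 4 with 1 library left out. Over all 626 miRNAs it called 186 higher and 168 lower. These were 257 and 93 on library totals, and 228 and 95 on spike-in totals. At a mean of at least 10 CPM they were 118 and 113 of 397. Without both libraries that stood apart, NONO called 2 and ASO-Ctrl minus siCtrl called 1, in place of 0. The share of all miRNAs called was not counted in fits with libraries left out, so nothing is read from these counts. The causes were not tested. The calls of miR-374a-3p with SFPQ were lost in 11 of 19 alternatives. No fold change of a called member reversed sign.

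Whether replicate numbers pair the libraries was not settled. Same-numbered libraries of a knockdown and its control correlated at -0.29 to 0.62. In 1 of 6 comparisons, siNONO-3, each library correlated best with its own number. On the first principal component, however, replicate 1 lay above replicate 3 in every group. It was at 25 against 18.1 in siSFPQ-2, and at -7.79 against -8.61 in siCtrl. The source of that order was not tested. With the replicate block 4 members were called for SFPQ, 0 for NONO and 0 for NEAT1, as without it; over all miRNAs NONO calls were 12 higher and 12 lower, against 6 and 4. Depth limits the miR-545 arms, at 6 to 109 counts per library.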
